A study of Mus musculus with 16 samples.

Results

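The 3 Runx genes and Cbfb were described through the accessible chromatin around them in mouse hematopoietic stem and progenitor cells (HSPCs). Peaks of 16 ATAC-seq libraries were merged wherever they shared at least 1 bp. A merged region was kept when it lay within the body of Runx1, Runx2, Runx3 or Cbfb or within 50 kb of either end on the mm10 build. The rule used position alone and no measured difference. It gave 340 of 296215 merged regions (0.115%), with 152 around Runx1, 107 around Runx2, 50 around Runx3 and 31 around Cbfb.

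ATAC-seq reads out DNA that a transposase can reach. The HSPCs were sorted from bone marrow of C57BL/6 mice, and a library pooled cells from 2 mice of 1 genotype. WT mice carried Ep300 fl/fl without Cre, P300KO mice Mx1-Cre and Ep300 fl/fl, TET2KO mice Ep300 fl/fl and Tet2-/-, and P300KO_TET2KO mice Mx1-Cre, Ep300 fl/fl and Tet2-/-, with 4 libraries per genotype. Thus the floxed Ep300 allele was shared by the 4 genotypes, and all mice received poly(I:C), in 3 doses of 10 µg/g from an age of 6 to 8 weeks. Mx1-Cre is switched on by interferon and is not restricted to HSPCs, Tet2 was absent from the germline onward, and the study's methods place experiments 2 weeks after poly(I:C) unless another time is given, with none stated for these libraries. Ep300 encodes p300, a coactivator that acetylates histones at enhancers. Tet2 encodes an enzyme that oxidizes 5-methylcytosine.

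Runx1, Runx2 and Runx3 are transcription factors that share the Runt DNA-binding domain and recognize the core sequence TGTGGT or TGCGGT. Cbfb encodes the partner that does not bind DNA itself and stabilizes each Runx protein on DNA. Runx1 is required for the emergence of hematopoietic stem cells and is recurrently mutated in myeloid neoplasms. Runx2 is the master regulator of bone formation, and Runx3 acts in cytotoxic T cells and innate lymphoid cells. Each Runx gene has a distal promoter (P1) and a proximal promoter (P2) that start different isoforms. In Runx1 the first intron, between the promoters, holds a well-known hematopoietic stem cell enhancer.

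Each library came as its own peak list with no read counts, so depth per library is unknown and no counting interval is given. The labels split each genotype: replicates 1 and 2 are tied to a merged peak list and replicates 3 and 4 are not. The former form deposit set 1 and the latter deposit set 2, and no source used here states what differs between them. Lists of set 1 held 86039 to 110055 peaks and lists of set 2 held 130610 to 137335. A −log10 q of 2 or more was reached by 45% of the peaks in WT replicate 1, 63.2% in WT replicate 2 and 71.3% in P300KO replicate 2, against 80.6% to 97.4% in the other 13 libraries. Several differences at regions that lack peaks in those 3 libraries are also given without them, a setting chosen after the data were seen. It leaves P300KO replicate 1 (for p300) or TET2KO replicates 1 and 2 (for Tet2) without counterparts, so these are dropped too, and the smallest possible p is then 0.00926. Promoters of stem and progenitor marker genes had a peak in all 16 libraries for 9 of 10 genes, with Ly6a in 15. No library had a peak at the promoters of Ms4a1 (B cells), Cd3e (T cells), Ly6g (granulocytes) or Klf1 (erythroid cells), while those of Pax5, Cd3d, Epor, Itgam, Cd14 and Adgre1 had one in all 16. An open promoter is not proof of expression, and the part of other cell types in the results was not tested. A peak list of bulk cells also cannot tell fewer cells with an open site from a site less open in each cell.

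Regions were compared by their rank in the list of their own library, where rank 1 is the peak with the highest −log10 p and a library without a peak takes rank 137336, one past the longest list. Ranks were compared on the log2 scale, and a negative difference means that the region sat nearer the top of the list when the gene was absent. The p300 effect compared the 8 libraries without p300 with the 8 that retain it, and the Tet2 effect did the same for Tet2. Both used a two-sided exact permutation test with labels exchanged within the combinations of deposit set and the other genotype (1296 arrangements, smallest possible p 0.00154). A region was called at an unadjusted p under 0.05. After Benjamini-Hochberg adjustment over the 128335 regions tested, 0 regions passed for either effect and the lowest adjusted p was 0.137 for p300 and 0.205 for Tet2. Single calls are therefore read against the share of all regions called. Differences are also given within deposit set 1 and within deposit set 2, where the smallest possible p is 0.0556 and no call can be made. Positions are named by the distance of the summit in kb from the start codon of the P1 isoform (for Cbfb, its start codon), with plus for downstream.

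The sequences on which the description turns come from the reference genome (RefSeq, GRCm38, which is mm10) and are written along the strand of the gene. They were picked by rule: for each locus, among regions outside promoters whose 200 bp around the summit touch no annotated exon, the one with the best median rank and the one with the lowest p for either effect, each as 100 bp either side of the summit, and the 200 bp before the start of the promoters that lead the lists. Capitals mark the core letters searched on both strands, for Runx (TGTGGT or TGCGGT), for the Gata family (AGATAA or TGATAA), Ets (AGGAAG or CGGAAG) and E-box (CAGCTG or CAGATG). The Runx1 pair shows the strongest intronic element (chr16:92801663-92801863), which holds 1 match of each of the 4 cores, and the region with the lowest p among those clear of exons (chr16:92715601-92715801), which holds 2 Gata cores.
Runx1 +23.9 kb: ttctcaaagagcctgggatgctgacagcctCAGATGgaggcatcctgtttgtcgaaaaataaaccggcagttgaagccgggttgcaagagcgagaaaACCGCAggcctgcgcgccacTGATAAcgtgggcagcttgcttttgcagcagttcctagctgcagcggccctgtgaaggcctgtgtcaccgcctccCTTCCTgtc
Runx1 +109.9 kb: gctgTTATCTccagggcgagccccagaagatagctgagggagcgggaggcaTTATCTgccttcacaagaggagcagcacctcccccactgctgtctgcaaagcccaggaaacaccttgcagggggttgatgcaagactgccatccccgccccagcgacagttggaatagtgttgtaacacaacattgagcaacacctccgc
The Runx2 pair shows chr17:44654641-44654841, with 1 Gata, 2 Ets and 1 E-box core, and chr17:44700421-44700621, with 2 Ets cores.
Runx2 +159.5 kb: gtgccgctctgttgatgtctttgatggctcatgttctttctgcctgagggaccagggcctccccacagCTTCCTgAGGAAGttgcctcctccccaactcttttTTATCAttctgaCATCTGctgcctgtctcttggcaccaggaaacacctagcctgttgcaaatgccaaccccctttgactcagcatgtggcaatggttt
Runx2 +113.7 kb: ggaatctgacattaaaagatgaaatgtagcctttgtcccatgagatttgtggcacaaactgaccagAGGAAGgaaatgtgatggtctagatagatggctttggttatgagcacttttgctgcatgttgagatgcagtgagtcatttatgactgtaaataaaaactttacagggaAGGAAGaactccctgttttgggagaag
The Runx3 pair shows chr4:135206327-135206527, with 1 Gata, 3 Ets and 1 E-box core, of which 2 Ets cores overlap, and chr4:135160259-135160459, with no core.
Runx3 +85.3 kb: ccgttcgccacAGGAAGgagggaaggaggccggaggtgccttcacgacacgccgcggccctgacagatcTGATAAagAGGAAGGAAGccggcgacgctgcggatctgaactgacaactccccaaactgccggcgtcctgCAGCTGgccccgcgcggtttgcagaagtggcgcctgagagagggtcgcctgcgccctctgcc
Runx3 +39.3 kb: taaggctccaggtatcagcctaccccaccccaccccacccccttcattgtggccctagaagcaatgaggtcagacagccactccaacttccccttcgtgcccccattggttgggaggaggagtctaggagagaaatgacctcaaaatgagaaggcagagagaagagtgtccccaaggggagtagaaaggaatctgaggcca
The Cbfb pair shows chr8:105121055-105121255, with 1 Runx core, and chr8:105237548-105237748, with 1 Runx and 1 Gata core.
Cbfb -49.8 kb: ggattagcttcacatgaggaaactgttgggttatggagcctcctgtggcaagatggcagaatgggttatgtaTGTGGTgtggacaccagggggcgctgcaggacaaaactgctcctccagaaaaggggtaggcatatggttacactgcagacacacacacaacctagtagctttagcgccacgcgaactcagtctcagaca
Cbfb +66.7 kb: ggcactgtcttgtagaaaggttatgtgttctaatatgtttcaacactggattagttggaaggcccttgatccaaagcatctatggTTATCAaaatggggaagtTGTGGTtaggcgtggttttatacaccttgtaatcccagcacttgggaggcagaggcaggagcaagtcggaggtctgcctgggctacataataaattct
The promoter stretches are chr16:92826150-92826349, chr16:92697329-92697528, chr4:135120452-135120651 and chr8:105170474-105170673. They show how the promoters differ in their letters: 46% G or C before Runx1 P1 against 65% before Runx1 P2, 63.5% before Runx3 P1 with 2 Runx cores, and 70% before Cbfb.
Runx1 P1 upstream: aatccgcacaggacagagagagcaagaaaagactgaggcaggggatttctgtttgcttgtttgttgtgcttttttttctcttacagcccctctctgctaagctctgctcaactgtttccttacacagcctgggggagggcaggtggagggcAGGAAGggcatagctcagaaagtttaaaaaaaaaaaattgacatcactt
Runx1 P2 upstream: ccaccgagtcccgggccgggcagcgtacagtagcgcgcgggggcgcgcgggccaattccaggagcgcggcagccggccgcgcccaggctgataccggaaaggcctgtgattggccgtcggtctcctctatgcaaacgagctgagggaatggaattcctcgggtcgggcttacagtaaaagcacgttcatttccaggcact
Runx3 P1 upstream: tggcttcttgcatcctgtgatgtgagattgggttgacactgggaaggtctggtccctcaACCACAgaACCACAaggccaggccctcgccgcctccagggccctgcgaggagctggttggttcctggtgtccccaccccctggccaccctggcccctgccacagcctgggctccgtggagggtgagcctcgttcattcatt
Cbfb promoter upstream: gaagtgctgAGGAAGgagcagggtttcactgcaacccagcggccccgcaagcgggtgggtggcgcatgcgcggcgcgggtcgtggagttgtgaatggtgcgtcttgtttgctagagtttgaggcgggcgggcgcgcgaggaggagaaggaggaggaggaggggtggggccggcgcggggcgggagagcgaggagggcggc

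Both promoters of Runx1 and its intronic element were open in all 16 libraries, and none of the 3 was called for either effect with lists ordered by −log10 p. The element at +23.9 kb (chr16:92800675-92802222), in the first intron, had the best median rank of the 152 Runx1 regions at 5386. This placed it in the top 4.13% of all regions tested. Its ranks were 5192, 5019, 5271 and 6634 in WT, 5865, 3067, 6992 and 5392 in P300KO, 4284, 5380, 7239 and 6235 in TET2KO, and 5327, 4315, 7162 and 6815 in P300KO_TET2KO. The 4 genotypes overlapped. The p300 difference was −0.04 on the log2 scale (geometric mean rank 5435 without and 5586 with p300, SD of log2 rank 0.41 and 0.24, n = 8 and 8, exact permutation p = 0.823), and the Tet2 difference was 0.11 (exact permutation p = 0.407).

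The P1 region of Runx1 (chr16:92825436-92826545) ranked 9139, 10496, 14735 and 14060 in WT, 16140, 9865, 18847 and 17308 in P300KO, 8376, 13158, 14631 and 13401 in TET2KO, and 9652, 10792, 14076 and 16498 in P300KO_TET2KO. P1 starts the isoform that predominates in definitive stem cells. Its median rank was 13730, and 3 of the 4 P300KO libraries lay below every WT library in the list. The p300 difference of 0.19 (exact permutation p = 0.142) and the difference of P300KO from WT of 0.35 (4 against 4, exact permutation p = 0.2) did not pass, and the Tet2 difference at P1 was −0.12 (exact permutation p = 0.346). Both effects passed once TET2KO replicate 2 was left out, at 0.28 for p300 (exact permutation p = 0.0123) and −0.20 for Tet2 (exact permutation p = 0.0448). Without the 3 libraries of lowest q share the Tet2 difference passed at −0.32 (exact permutation p = 0.0185), whereas lists ordered by fold enrichment gave it the other sign (0.18, exact permutation p = 0.316).

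The P2 region of Runx1 (chr16:92697156-92699025), 128.7 kb downstream of P1, ranked 7313, 7579, 13771 and 12736 in WT, 7772, 9113, 12246 and 10487 in P300KO, 8855, 6520, 12719 and 15574 in TET2KO, and 7782, 6628, 14440 and 11745 in P300KO_TET2KO. Here the deposit sets and not the genotypes parted: the 8 libraries of set 1 ranked 6520 to 9113 and the 8 of set 2 ranked 10487 to 15574. Of the 56 regions of the 4 loci seen in all libraries, 3 were parted by deposit set in this way (5.36%), against 6.53% of all 39310 such regions. The p300 difference at P2 was −0.06 (exact permutation p = 0.509) and the Tet2 difference 0.02 (exact permutation p = 0.813). A smaller region over the exon next to P2 (+128.9 kb, chr16:92696583-92697029) had a median rank of 29100 and differences of 0.03 for p300 and −0.10 for Tet2 (exact permutation p = 0.824 and 0.557).

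The order among these Runx1 sites held across libraries. The intronic element ranked nearer the top than P1 in 16 of 16 libraries, by −1.22 ± 0.28 on the log2 scale (mean ± SD, n = 16), and nearer than P2 in 16 of 16, by −0.85 ± 0.36. P2 ranked nearer the top than P1 in 13 of 16 libraries, by −0.37 ± 0.38, and its fold enrichment was higher than that of P1 in 16 of 16. The gap between the element and P1 was −1.56 ± 0.14 in P300KO, where WT had −1.11 ± 0.28, TET2KO −1.09 ± 0.14 and P300KO_TET2KO −1.11 ± 0.23 (n = 4 each). It was widest in P300KO, but neither the p300 effect on the gap (−0.23, exact permutation p = 0.0818) nor the Tet2 effect (0.24, exact permutation p = 0.0818) passed.

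The reading of these promoters depends on which of the authors' values orders the list. When lists were ordered by fold enrichment in place of −log10 p, 5 of the 9 promoter regions tested at the members' own starts were called for p300, all further down without it, beside 17.8% of all regions within 3 kb of a start site. They were P1 of Runx1, which moved from 0.19 to 0.36 (exact permutation p = 0.0154), P2 of Runx1, from −0.06 to 0.30 (exact permutation p = 0.0247), P2 of Runx2, from −0.03 to 0.26 (exact permutation p = 0.0401), the Runx3 P2 region at +31.3 kb, from 0.21 to 0.24 (exact permutation p = 0.00617), and the Cbfb promoter, from −0.10 to 0.35 (exact permutation p = 0.0432). For Tet2 the same ordering called 3 of the 9, again further down and beside 15.2% of such regions. These were the Cbfb promoter, from 0.12 to 0.47 (exact permutation p = 0.0123), P2 of Runx2, from 0.11 to 0.24 (exact permutation p = 0.0448), and Runx3 +31.3 kb, from 0.06 to 0.21 (exact permutation p = 0.0201). The intronic element of Runx1 reached 0.31 for p300 (exact permutation p = 0.103) and was called for Tet2 at 0.39 (exact permutation p = 0.0216). The cause was not tested.

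**Figure D1:**
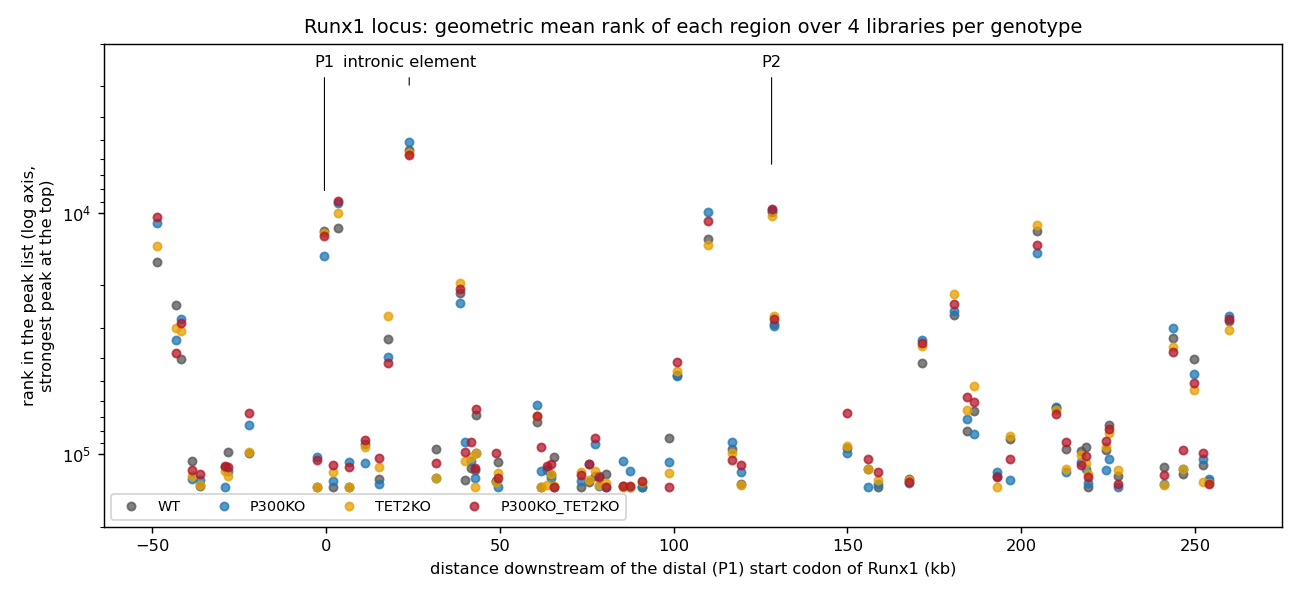
Regions tested around Runx1, placed by distance in kb downstream of the P1 start codon on the horizontal axis and by rank on a log vertical axis with the strongest peak at the top. Each point is the geometric mean rank over the 4 libraries of 1 genotype, with a library without a peak at 137336. The intronic element at +23.9 kb stands above P1 and P2 in all 4 genotypes.

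**Figure D2:**
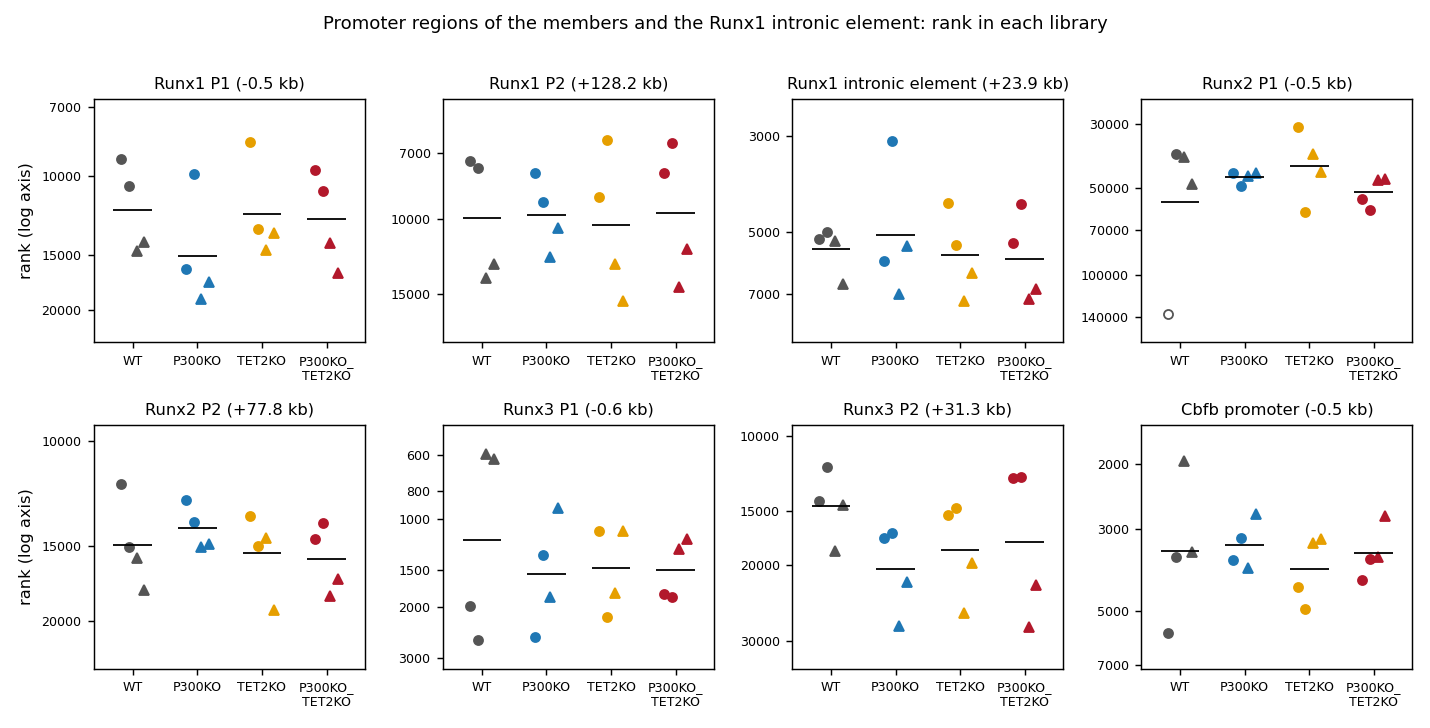
Rank in each library (log axis, strongest at the top) of the member promoters and the Runx1 intronic element, by genotype. Circles are deposit set 1, triangles deposit set 2, open symbols libraries without a peak (placed at 137336), and bars geometric means over 4 libraries. At Runx1 P2 the circles rank 6520 to 9113 and the triangles 10487 to 15574 across the 4 genotypes.

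Within introns of Runx1 lay 113 regions, of which 10 were open in all 16 libraries and 44 in 1 library alone. Between P1 and P2 there were 66 regions, 6 of them in all 16 libraries, and of the 33 tested there 3 were called for p300 and 2 for Tet2, beside 12.8% and 11.1% of all regions tested. The region at +109.9 kb (chr16:92714816-92716412) ranked 14123, 11368, 13147 and 13130 in WT, 9726, 9824, 8705 and 11527 in P300KO, 11818, 10990, 14104 and 18727 in TET2KO, and 11067, 11111, 10125 and 11186 in P300KO_TET2KO. The mean log2 rank was nearer the top without p300 in all 4 combinations of deposit set and Tet2 genotype. The difference was only −0.04 for P300KO_TET2KO against TET2KO in set 1, and −0.37 to −0.61 in the others. P300KO and WT overlapped, and so did P300KO_TET2KO and TET2KO. The p300 difference was −0.35, or 1.28 times nearer the top (SD 0.14 and 0.24, n = 8 and 8, exact permutation p = 0.00463, adjusted p = 0.164), and it was −0.21 within set 1 and −0.50 within set 2. Ordered by fold enrichment the difference was −0.01 (exact permutation p = 0.958), so this call rests on the ordering by −log10 p.

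The called region at −48.6 kb (chr16:92873619-92874551), upstream of P1, with its midpoint in an intron and its summit in the last exon of the noncoding gene Gm49723, ranked 13082, 21621, 14598 and 15897 in WT, 14136, 8307, 10823 and 11570 in P300KO, 13192, 15542, 12784 and 13567 in TET2KO, and 10763, 12198, 8782 and 10023 in P300KO_TET2KO. The P300KO_TET2KO libraries were all nearer the top than the TET2KO libraries. The p300 difference was −0.47, or 1.39 times nearer the top (SD 0.25 and 0.25, exact permutation p = 0.00309, adjusted p = 0.164), with −0.48 within set 1 and −0.47 within set 2. In the 4 against 4 comparisons it was −0.41 between P300KO_TET2KO and TET2KO (exact permutation p = 0.0286, the smallest that 70 regroupings allow) and −0.54 between P300KO and WT (p = 0.0571, same exact test). This call held whichever single library was left out and with lists ordered by fold enrichment.

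A pair of neighbouring regions upstream of P1 moved apart, of which the one at −41.9 kb was named after its values were seen. At −41.9 kb (chr16:92867074-92868011) the ranks were 42468, 43710, 40967 and 34776 in WT and 31188, 30132, 27778 and 21833 in P300KO, which did not overlap, and 26242, 29416, 33159 and 35988 in TET2KO against 28861, 24784, 27615 and 33439 in P300KO_TET2KO, which did. The p300 difference was −0.34 (exact permutation p = 0.00772, adjusted p = 0.203), with −0.27 within set 1 and −0.40 within set 2. At −43.1 kb (chr16:92868413-92868918) the p300 difference had the other sign, 0.41, with geometric mean ranks of 35827 without and 26939 with p300 (exact permutation p = 0.0154, adjusted p = 0.25), and 0.54 within set 1 and 0.28 within set 2. Its call was lost without WT replicate 1 (p = 0.0586) and without P300KO replicate 2 (p = 0.0725, both by the exact permutation test).

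A further pair of Runx1 calls did not hold without single libraries. The region at +204.7 kb, in an intron downstream of P2, fell in the list without p300, by 0.28 (exact permutation p = 0.0154, with 0.27 within set 1 and 0.30 within set 2), and lost the call without WT replicate 2 (p = 0.0602, same exact test), without P300KO replicate 1 (p = 0.0633, same exact test) or without P300KO replicate 2 (p = 0.071, same exact test). A region 3.4 kb downstream of the P1 start codon, named after its values were seen, was nearer the top without p300, by −0.25 (exact permutation p = 0.0123). Without WT replicate 1 its p was 0.12, without P300KO replicate 2 it was 0.0818 (both by the exact test), and the ordering by fold enrichment gave 0.10. For Tet2 the Runx1 locus had 2 calls among 71 regions tested (2.82%), against 11.1% of all regions. Both calls, at +15.3 and +98.6 kb, were of regions seen in 9 and 6 libraries. The latter call (0.41, exact permutation p = 0.0278) was lost without WT replicate 1 or 2, P300KO replicate 1 or P300KO_TET2KO replicate 1 or 2 (p = 0.0556 to 0.0648, same exact test), with the replicate block (p = 0.0625, same exact test), at a −log10 q of at least 2 (p = 0.0833, same exact test) and without the 3 libraries of lowest q share (0.38, p = 0.0556, same exact test).

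P1 of Runx2 ranked below P2 by −log10 p. The P1 region (chr17:44814018-44815177) had no peak in WT replicate 1 and ranked 38070, 39016 and 48180 in the other WT libraries, 44415, 49044, 45264 and 44267 in P300KO, 30579, 60551, 38005 and 43768 in TET2KO, and 54600, 59741, 46702 and 46606 in P300KO_TET2KO. P2 (chr17:44734444-44736788) had a median rank of 14940 against 45935 for P1 and was nearer the top in 16 of 16 libraries, by −1.69 ± 0.57 on the log2 scale (n = 16), although its fold enrichment was the higher in only 7 of 16. P2 drives the isoform known as type I, which is not restricted to bone, and P1 the bone isoform. The p300 and Tet2 differences were 0.00 and −0.12 at P1 (exact permutation p = 0.991 and 0.761) and −0.03 and 0.11 at P2 (exact permutation p = 0.71 and 0.142).

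The best-ranked region in the Runx2 window was a promoter of Supt3, the neighbour whose start lies inside Runx2 (+37.1 kb, median rank 3640). Of the regions outside promoters the intronic one at +159.5 kb (chr17:44654337-44655276) led with a median rank of 4726, in the top 3.59% of regions tested. It ranked 3732 to 8379 over the 16 libraries, and its differences of −0.05 for p300 and 0.09 for Tet2 did not pass (exact permutation p = 0.778 and 0.571).

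Tet2 calls in Runx2 numbered 12 of 56 regions tested (21.4%, beside 11.1% of all regions), 7 nearer the top and 5 further down without Tet2 (beside 7.83% and 3.26% of all regions). The intronic region at +113.7 kb (chr17:44700173-44700802) had no peak in WT replicates 1 and 2 and ranked 83302 and 92253 in replicates 3 and 4. In P300KO it was missing from replicate 2 and ranked 61851, 80009 and 78471 in the others. It ranked 62086, 55147, 72360 and 82791 in TET2KO and 52832, 57130, 54626 and 54075 in P300KO_TET2KO, and those genotypes did not overlap with WT and P300KO respectively. The Tet2 difference was −0.68, or 1.60 times nearer the top (SD 0.23 and 0.45, n = 8 and 8, exact permutation p = 0.00154, the smallest the design allows, adjusted p = 0.205), with −0.99 within set 1 and −0.36 within set 2, and −0.30 without the 3 libraries of lowest q share (exact permutation p = 0.00926, the smallest then possible). The p300 difference was −0.33 (exact permutation p = 0.00926, adjusted p = 0.203) and lost its call without WT replicate 1 or without WT replicate 2 (p = 0.0988 in each case, same exact test). It also missed the threshold with lists ordered by fold enrichment (−0.25, p = 0.0648, same exact test), and passed without the 3 libraries (−0.25, p = 0.0185, same exact test).

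At +1.3 kb, just inside P1 of Runx2 (chr17:44812506-44813236), the effects ran in opposite directions. No peak was found in WT replicate 1 or in P300KO replicates 1 and 2. The remaining ranks were 72231, 49738 and 57806 in WT, 66642 and 58969 in P300KO, 44499, 53507, 51414 and 50659 in TET2KO, and 68115, 53997, 51249 and 52429 in P300KO_TET2KO. All 8 libraries without Tet2 had the peak. The Tet2 difference was −0.64 (exact permutation p = 0.00463, adjusted p = 0.24) and the p300 difference 0.26 (exact permutation p = 0.00926, adjusted p = 0.203). Within set 1 they were −1.10 and 0.39 and within set 2 −0.17 and 0.12. Without the 3 libraries of lowest q share they were −0.51 and 0.19 (exact permutation p = 0.0278 and 0.0185). The p300 call was lost when WT replicate 3, any of P300KO replicates 1, 2 and 3, TET2KO replicate 1 or P300KO_TET2KO replicate 1 was left out (p = 0.0648 to 0.134, same exact test).

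At +85.6 kb in the Runx2 intron the 8 libraries without Tet2 again all had a peak, at ranks of 39840 to 60555, while WT replicate 2 and P300KO replicate 2 had none (Tet2 difference −0.58, exact permutation p = 0.00463, with −0.82 within set 1 and −0.34 within set 2). Its call was lost without the 3 libraries of lowest q share (−0.29, p = 0.0741, exact permutation). The region at +89.1 kb went the other way: 4 of 4 P300KO and 2 of 4 WT libraries had a peak, against 1 of 4 in TET2KO and 1 of 4 in P300KO_TET2KO (Tet2 difference 0.54, exact permutation p = 0.00926, with 0.35 within set 1 and 0.74 within set 2, and 0.67 without the 3 libraries of lowest q share, exact permutation p = 0.0185). Downstream of Runx2, at +358.4 kb, the rank fell without Tet2 by 0.35 (exact permutation p = 0.0154), and TET2KO libraries at 17496 to 26607 did not overlap with WT libraries at 10702 to 16952. Ordered by fold enrichment, that difference was 0.29 (p = 0.301, exact permutation), and without the 3 libraries 0.16 (p = 0.111, exact permutation). WT replicates 1 and 2 and P300KO replicate 2, the 3 libraries of lowest q share, lack several of these peaks.

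Runx3 had the strongest promoter of the family. Its P1 region (chr4:135119788-135120935) had a median rank of 1564, in the top 1.17% of regions tested. It ranked 1992, 2614, 594 and 621 in WT, 2537, 1333, 1850 and 915 in P300KO, 1102, 2165, 1796 and 1101 in TET2KO, and 1809, 1854, 1267 and 1174 in P300KO_TET2KO. The WT libraries of the deposit sets stood apart while the genotypes overlapped, with differences of 0.21 for p300 and 0.14 for Tet2 (exact permutation p = 0.461 and 0.628). A noncoding gene, Gm16225, starts closer to this summit than Runx3 does. P1 ranked nearer the top than the P2 region at +31.3 kb in 16 of 16 libraries, by −3.64 ± 0.84 (n = 16), the reverse of the order by rank in Runx2.

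P2 of Runx3 was covered by 2 regions. The one at +31.3 kb (chr4:135151960-135152636) had a median rank of 17056 and differences of 0.21 for p300 and 0.06 for Tet2 (exact permutation p = 0.11 and 0.591). The other, at +32.7 kb (chr4:135152738-135154397), ranked 21470, 20659, 33075 and 32455 in WT, 20793, 19493, 24830 and 25588 in P300KO, 20498, 24347, 27613 and 30660 in TET2KO, and 16202, 17982, 21429 and 29057 in P300KO_TET2KO. It was the 1 called region of the 9 promoter regions tested at the members' own starts (beside 13.2% of all regions within 3 kb of a start site), by −0.26 for p300, or 1.20 times nearer the top (exact permutation p = 0.00772, adjusted p = 0.203), with the same sign in all 4 combinations of set and Tet2 genotype. With lists ordered by fold enrichment it missed the threshold (−0.11, p = 0.1, exact permutation). For Tet2, 0 of the 9 passed by −log10 p (beside 12.1%), and 3 did by fold enrichment.

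Inside Runx3, the intronic region at +39.3 kb (chr4:135159524-135160695) was nearer the top without Tet2 and without p300. It ranked 53455, 30306, 22299 and 23331 in WT, 19860, 29710, 25593 and 21524 in P300KO, 24116, 27101, 21896 and 15497 in TET2KO, and 18726, 19152, 16519 and 14106 in P300KO_TET2KO. All 4 P300KO_TET2KO libraries were nearer the top than every P300KO library. The Tet2 difference was −0.49, or 1.40 times nearer the top (SD 0.32 and 0.45, n = 8 and 8, exact permutation p = 0.00154, adjusted p = 0.205), with −0.51 within set 1 and −0.46 within set 2. For p300 the difference was −0.35 (exact permutation p = 0.0293, adjusted p = 0.295) with −0.58 within set 1 and −0.11 within set 2. It missed the threshold by percentile of the list (p = 0.106, same exact test), with the replicate block (p = 0.0547, same exact test), without the 3 libraries of lowest q share (−0.22, p = 0.0926, same exact test) and without WT replicate 1, P300KO replicate 1 or 4, TET2KO replicate 3 or P300KO_TET2KO replicate 4 (p = 0.0556 to 0.116, same exact test).

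At −40.7 kb (chr4:135079818-135081020), intergenic and upstream of P1, the ranks were 15352, 15686, 12638 and 13081 in WT, 16108, 13740, 22520 and 25233 in P300KO, 14973, 15509, 12748 and 11169 in TET2KO, and 21688, 22077, 19900 and 17444 in P300KO_TET2KO. This region was further down the list in P300KO_TET2KO than in TET2KO in every library. Loss of p300 gave a difference of 0.50, or 1.41 times further down (SD 0.29 and 0.18, n = 8 and 8, exact permutation p = 0.00617, adjusted p = 0.188), with 0.23 within set 1 and 0.77 within set 2. The sign was the same in 3 of 4 combinations of set and Tet2 genotype, with −0.06 for P300KO against WT in set 1. Ordered by fold enrichment the p300 difference was 0.22 (p = 0.034, exact permutation). Between P300KO and WT the difference of 0.41 did not pass (p = 0.114, 4 against 4, exact permutation).

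Tet2 calls made up 8 of 29 regions tested at Runx3 (27.6%, beside 11.1% of all regions), all 8 nearer the top without Tet2 (beside 7.83%). Among them the intronic region at +7.9 kb had geometric mean ranks of 8127 without and 10321 with Tet2 (difference −0.34, exact permutation p = 0.0123, with −0.26 within set 1 and −0.43 within set 2), lost without P300KO_TET2KO replicate 1 (p = 0.0556, same exact test) and by percentile of the list (p = 0.0957, same exact test). The strongest distal region, downstream of the gene at +85.3 kb (median rank 3878), ranked 8118, 3848, 3907 and 3193 in WT, 5267, 4135, 4454 and 3825 in P300KO, 3134, 3926, 3072 and 3433 in TET2KO, and 3552, 4253, 4203 and 3345 in P300KO_TET2KO. The Tet2 difference there was −0.30 (exact permutation p = 0.0432). It was lost without any one of WT replicates 1 and 3, P300KO replicates 1 and 3, TET2KO replicates 1, 2 and 3 and P300KO_TET2KO replicates 1 and 4 (p = 0.0818 to 0.222, same exact test), without the 3 libraries of lowest q share (−0.23, p = 0.0926, same exact test), with the replicate block (p = 0.0938, same exact test), by percentile of the list (p = 0.0772, same exact test) and with lists ordered by fold enrichment (−0.08, p = 0.657, same exact test). WT replicate 1 stood apart from the rest.

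The single promoter region of Cbfb (chr8:105170118-105171904) was among the stronger peaks in every library, with a median rank of 3572 and the top 2.73% of regions tested. It ranked 5734, 3573, 1960 and 3452 in WT, 3635, 3169, 3814 and 2726 in P300KO, 4298, 4938, 3272 and 3192 in TET2KO, and 4124, 3622, 3570 and 2757 in P300KO_TET2KO. The genotypes overlapped, and neither the p300 difference of −0.10 nor the Tet2 difference of 0.12 passed (exact permutation p = 0.535 and 0.427).

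A short region at +1.2 kb, in the first intron of Cbfb (chr8:105172054-105172294), was found in 0 of 4 WT, 3 of 4 P300KO, 2 of 4 TET2KO and 4 of 4 P300KO_TET2KO libraries. Its ranks were 56573, 77184 and 83370 in P300KO replicates 1, 3 and 4, 77628 and 73044 in TET2KO replicates 3 and 4, and 53199, 44989, 58874 and 61241 in P300KO_TET2KO. Across both backgrounds the p300 difference was −0.81 (exact permutation p = 0.00463, adjusted p = 0.164) and the Tet2 difference −0.53 (exact permutation p = 0.00926, adjusted p = 0.278). The Tet2 call was lost without P300KO_TET2KO replicate 2 (p = 0.0556, same exact test). Within set 1 the differences were −1.06 and −0.42 and within set 2 −0.55 and −0.64. Without the 3 libraries of lowest q share they were −0.86 and −0.50 (exact permutation p = 0.00926 and 0.0185). They depend on the rank given to a library without a peak. The small RNA gene Gm22063 is annotated closest to this summit.

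At +66.7 kb (chr8:105237337-105238092), downstream of Cbfb and in an intron of D230025D16Rik, no peak was found in replicates 1 and 2 of WT or of TET2KO. The ranks were 66019 and 65738 in WT replicates 3 and 4, 52297, 56997, 54177 and 52077 in P300KO, 58107 and 55069 in TET2KO replicates 3 and 4, and 77228, 55139, 50876 and 58069 in P300KO_TET2KO. All 8 libraries without p300 had the peak. The p300 difference was −0.69 (exact permutation p = 0.00309, adjusted p = 0.164), with −1.20 within set 1 and −0.18 within set 2. Without the 3 libraries of lowest q share it was −0.48 (p = 0.0185, same exact test). That setting keeps TET2KO replicates 1 and 2, so its value still depends on the rank given to a library without a peak. Its parts were −1.07 for P300KO_TET2KO against TET2KO in set 1, −0.06 for the same pair in set 2, and −0.31 for P300KO against WT in set 2. The Tet2 difference was 0.02 (exact permutation p = 0.917).

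Other calls at Cbfb lay outside the gene. The region at −32.4 kb, in an intron of Ces4a, was nearer the top without p300, by −0.40 (exact permutation p = 0.00463), and without Tet2, by −0.33 (exact permutation p = 0.017). Both calls were lost by percentile of the list (p = 0.054 and 0.0525, same exact test), and the Tet2 call also without P300KO replicate 4 (p = 0.054, same exact test) or the 3 libraries of lowest q share (−0.26, p = 0.0926, same exact test). Just past the 3′ end, at +47.1 kb, the p300 difference was −0.48 (exact permutation p = 0.0139), with −0.83 within set 1 and −0.13 within set 2, and the call was lost without P300KO replicate 1 (p = 0.0756, same exact test) or replicate 2 (p = 0.113, same exact test), and without the 3 libraries (−0.24, p = 0.0833, same exact test). The promoter of Tradd, at +93.7 kb, was named after its values were seen. It was nearer the top without Tet2 by −0.40 (exact permutation p = 0.00309). That call was lost without TET2KO replicate 1 (p = 0.148, same exact test) or replicate 2 (p = 0.0833, same exact test). It was also lost with lists ordered by fold enrichment (−0.08, p = 0.755, same exact test). The window thus holds genes other than Cbfb, and accessibility there cannot be assigned to Cbfb from these data.

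**Figure D3:**
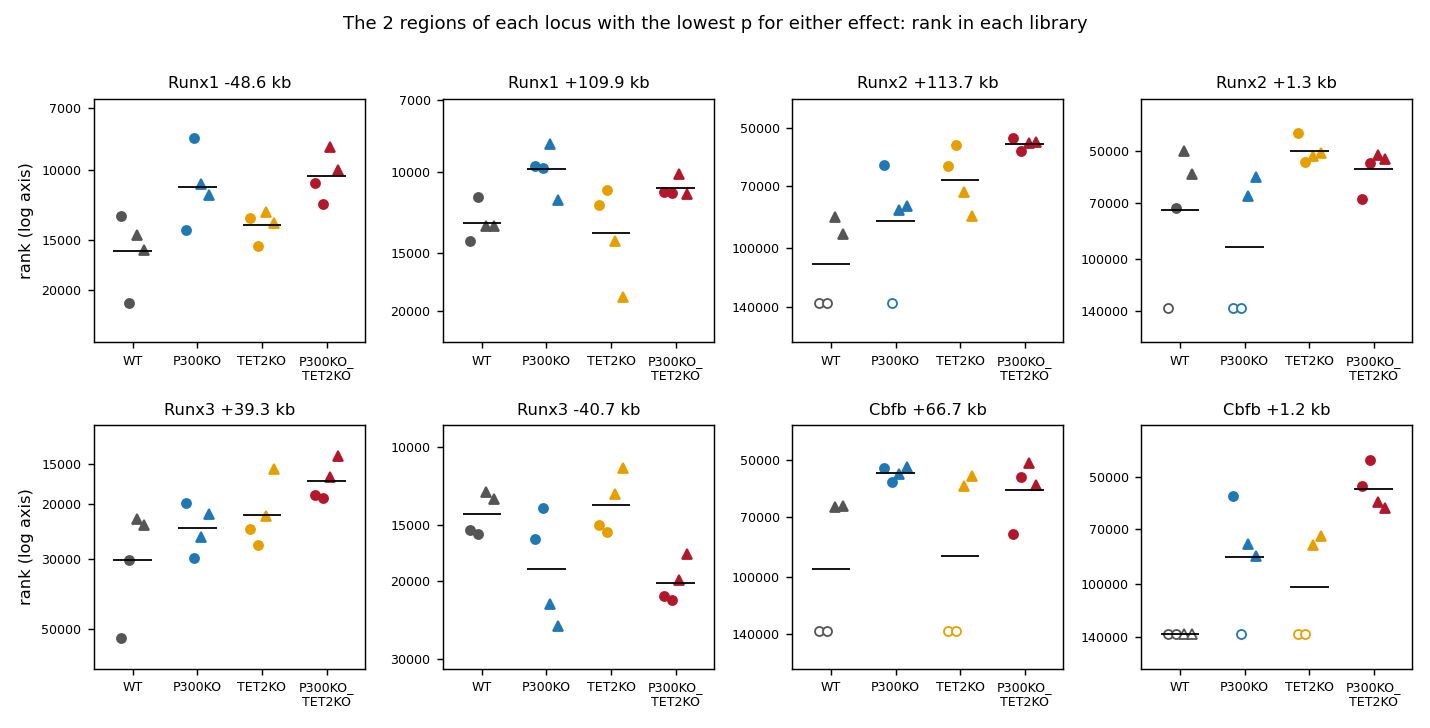
Rank in each library (log axis, strongest at the top) for 2 regions of each locus, by genotype. They are the regions named by rule, outside the members' own promoters, with the lowest p for either effect. Cbfb +93.7 kb (Tet2 exact permutation p = 0.00309) was not named by rule and is not shown. Circles are deposit set 1, triangles deposit set 2, open symbols libraries without a peak (placed at 137336), and bars geometric means over 4 libraries. At Cbfb +66.7 kb all 8 libraries without p300 have a peak, and the open symbols are replicates 1 and 2 of WT and TET2KO.

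Over the 4 loci, 174 of the 340 regions had a peak in at least 4 libraries and were tested. Of the rest, 121 regions were seen in a single library. For the p300 effect 25 regions (14.4%) were called, beside 12.8% of all regions tested. Of them 18 were nearer the top (10.3% of the members, beside 8.48%) and 7 further down (4.02%, beside 4.34%). The Tet2 effect gave 25 called regions as well (14.4%), beside 11.1% of all regions, with 19 nearer the top (10.9%, beside 7.83%) and 6 further down (3.45%, beside 3.26%). These shares are near the background. Among the 56 regions open in all 16 libraries, 12 (21.4%) were called for p300, beside 17.6% of such regions genome-wide, and 10 (17.9%) for Tet2, beside 14.0%. The median p300 difference was −0.02 over the members and −0.04 over all regions, and the median Tet2 difference −0.05 and −0.06.

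The split of the calls by direction moved with the setting. Ordering lists by fold enrichment gave 29 p300 calls, 15 nearer the top and 14 further down, beside 14.7% of all regions. Leaving out WT replicate 1 gave 27 Tet2 calls, 15 nearer and 12 further down, beside 10.9%. An alternative added after the data were seen, without the WT and P300KO libraries of deposit set 1, gave 30 p300 calls, 14 nearer and 16 further down, beside 12.9% of all regions. Without the 3 libraries of lowest q share there were 24 Tet2 calls, 15 nearer and 9 further down, beside 9.41%, and 10 of them were among the 25. By locus, p300 calls made up 9 of 71 regions at Runx1 (12.7%), 7 of 56 at Runx2 (12.5%), 5 of 29 at Runx3 (17.2%) and 4 of 18 at Cbfb (22.2%), and Tet2 calls 3 of 18 at Cbfb (16.7%). Both effects called 9 regions in common (5.17% of the members, beside 2.59% of all regions), of which 7 were nearer the top in both and 2 moved in opposite directions.

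In the single contrasts, with 4 libraries against 4, a call requires that the ranks do not overlap. P300KO_TET2KO against TET2KO gave 10 called members (5.75%), beside 4.27% of all regions. P300KO against WT gave 3 (1.72%), beside 2.72%. TET2KO against WT gave 4 (2.30%), beside 1.97%, and P300KO_TET2KO against P300KO gave 4 (2.30%), beside 3.99%. These contrasts share libraries. No region of the 4 loci was gained or lost outright, meaning present in 4 of 4 and absent from 4 of 4, in any of the 4 contrasts. Genome-wide the shares gained and lost were 0.0598% and 0.0128% for P300KO_TET2KO against TET2KO, 0.0132% and 0.0105% for P300KO against WT, 0.0142% and 0.00709% for TET2KO against WT, and 0.0652% and 0.0307% for P300KO_TET2KO against P300KO. A peak in 4 of 4 libraries was found for 62 member regions in WT (18.2%, beside 15.0% of all merged regions), 77 in P300KO (22.6%, beside 19.3%), 88 in TET2KO (25.9%, beside 21.2%) and 102 in P300KO_TET2KO (30.0%, beside 25.4%), given here without a test. The order was the same over all regions, and the 3 libraries of lowest q share belong to WT and P300KO.

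**Figure D4:**
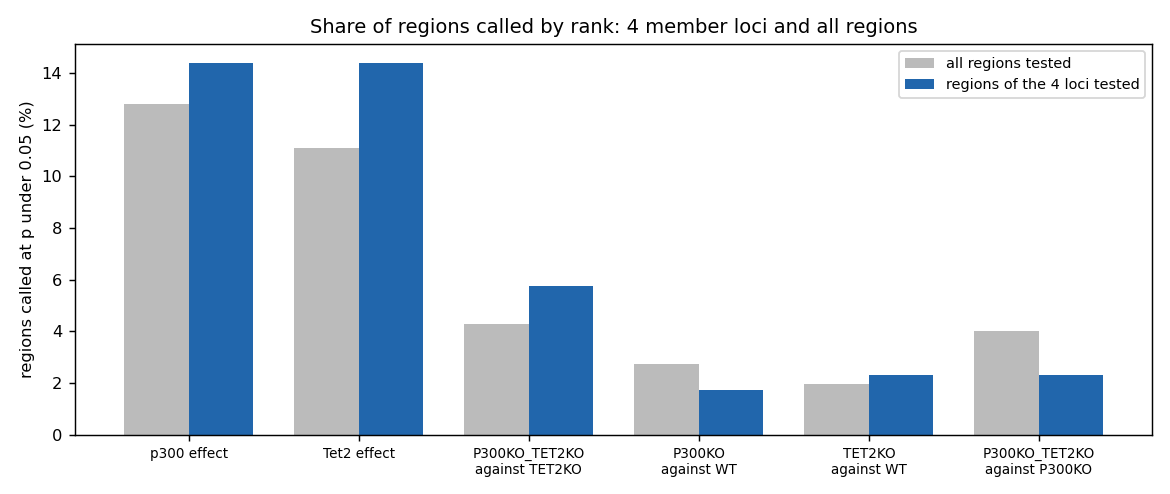
Share of regions called at p under 0.05 (vertical axis, percent) for the 2 effects and the 4 contrasts, for all regions tested (grey) and for the 174 tested regions of the 4 loci (blue). The blue bars stand at 14.4% for both effects, beside grey bars of 12.8% and 11.1%.

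Counted per library, the windows were rich in accessible regions. Runx1 had 15.6 merged regions per 100 kb (percentile 90.2 among 20819 protein-coding loci), Runx3 16.6 (percentile 92.9), Runx2 11.3 (percentile 69.8) and Cbfb 11.2 (percentile 69.2), where the median locus had 8.13. Runx1 held 36, 46, 60 and 53 open regions in the WT libraries, 36, 41, 64 and 56 in P300KO, 35, 36, 62 and 58 in TET2KO, and 44, 53, 67 and 63 in P300KO_TET2KO. Set 2 libraries, whose lists are longer, held more than set 1 libraries of the same genotype. The means were 48.8, 49.2, 47.8 and 56.8, and neither the p300 difference of 4.75 nor the Tet2 difference of 3.25 regions passed (exact permutation p = 0.111 and 0.264). The p300 difference became 6 without WT replicate 2 (p = 0.0185, same exact test). The Tet2 difference was 2 without WT replicate 1, 5.88 at a −log10 q of at least 2 and 7 without the 3 libraries of lowest q share (p = 0.0741, same exact test).

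By this count Cbfb was called for p300, and no other locus of the 4 was called for either effect. Other settings called Runx1 for p300 (6 without WT replicate 2), Runx2 for Tet2 at a −log10 q of at least 2 (6.75, exact permutation p = 0.0247) and Runx3 for Tet2 at 50% overlap (2.88, exact permutation p = 0.0278), while the Cbfb call was lost with labels permuted across deposit sets (exact permutation p = 0.0531). It held 14, 15, 17 and 17 open regions in WT, 18, 13, 19 and 19 in P300KO, 14, 13, 16 and 17 in TET2KO, and 18, 17, 18 and 18 in P300KO_TET2KO. Across genotypes, libraries without p300 had 17.5 regions on average against 15.4 with p300, a difference of 2.12 (exact permutation p = 0.0201, adjusted over all loci p = 0.685), beside 6.49% of loci called for p300 (4.17% with more regions, 2.32% with fewer). The difference was 2.5 within set 1 and 1.75 within set 2. The call was lost without WT replicate 1 (difference 2, p = 0.0602, same exact test) and without P300KO replicate 1 (difference 1.5, p = 0.071, same exact test). For Tet2 the Cbfb difference was −0.125 (exact permutation p = 1), beside 5.73% of loci called (3.03% with more regions, 2.70% with fewer). Runx2 differed by 2.12 for p300 and 2.88 for Tet2 (exact permutation p = 0.383 and 0.278), which became 0.125 and 0.875 without WT replicate 1 and 4.12 and 4.88 without WT replicate 2, and Runx3 by −1.12 and 0.625 (exact permutation p = 0.417 and 0.727).

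**Figure D5:**
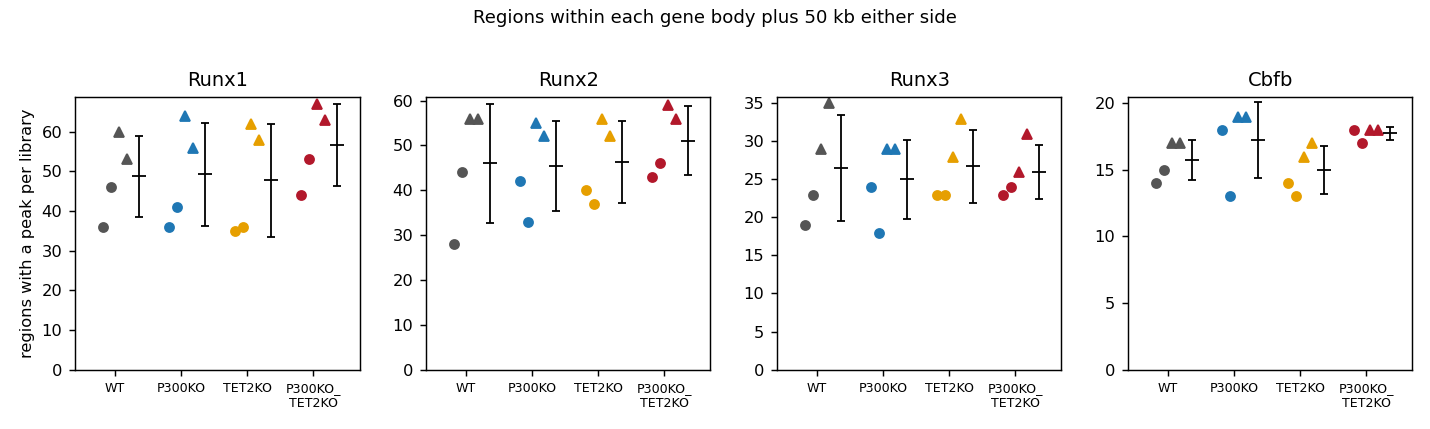
Number of regions with a peak in each library (vertical axis) within each gene body plus 50 kb either side, by genotype. Circles are deposit set 1, triangles deposit set 2, and the bars mean ± SD over 4 libraries. At Runx1 the circles lie between 35 and 53 and the triangles between 53 and 67.

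Runx cores were found within 100 bp of the summit in 69 of the 174 tested regions (39.7%), where 28.6% of all 128335 tested regions held one. Away from promoters, more than 3 kb from a start site, the shares were 59 of 142 (41.5%) and 30.7%. Gata cores were present in 36 regions (20.7%, against 15% of all), Ets cores in 96 (55.2%, against 50.9%) and E-box cores in 57 (32.8%, against 29.2%). All 4 cores occurred together in 5 regions (2.87%, against 0.715%), and the Runx1 intronic element was one of them. By locus, Runx cores were in 27 of 61 distal regions at Runx1 (44.3%), 18 of 48 at Runx2 (37.5%), 11 of 24 at Runx3 (45.8%) and 3 of 9 at Cbfb (33.3%). These are counts of letters, without a test, and do not show binding.

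Promoters of genes that work with the Runx proteins were examined from lists. Of 14157 promoter regions tested, 12.8% were called for p300 and 12.8% for Tet2. The calls in the partner, target and cofactor lists are unadjusted and rest on the ordering by −log10 p. The ordering by fold enrichment and the leaving out of libraries are not given for them. Among 8 listed partners in stem cells, 3 promoters were nearer the top without p300. They were Gata2 by −0.33 (exact permutation p = 0.00772), Tal1 by −0.24 (exact permutation p = 0.00154) and Lmo2 by −0.21 (exact permutation p = 0.00154). Gata2 and Tal1 are transcription factors of stem and progenitor cells, and Lmo2 bridges them in 1 complex. Lmo2 was further down without Tet2, by 0.26 (exact permutation p = 0.017).

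Of 10 known Runx target genes, 9 had a promoter that could be tested. Nearer the top without p300 were Csf1r, the receptor of macrophage growth factor (−0.57, exact permutation p = 0.00772), Csf2, which encodes GM-CSF (−0.33, exact permutation p = 0.0108), and Itga2b, the megakaryocyte integrin (−0.60, exact permutation p = 0.00309). Gfi1, a repressor needed for granulocyte formation, was further down (0.47, exact permutation p = 0.0108). Of 10 chromatin cofactors of Runx proteins, 0 were called for p300, and Ncor1 and Tle3, both corepressors, were further down without Tet2 (0.43 and 0.35, exact permutation p = 0.0432 and 0.037).

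By the rank of the strongest promoter region over the 16 libraries, centred within each deposit set, the genes most like Runx1 among 16503 were Cecr2, Aoah and Snx20 (Spearman's rho 0.84, 0.83 and 0.82). For Cbfb they were Xkrx, Gnpda2 and Tfap2e (rho 0.87, 0.83 and 0.79), for Runx3 Sart1, Bmpr2 and Zfp661 (rho 0.80, 0.80 and 0.79), and for Runx2 Pglyrp1, Grik5 and Srek1 (rho 0.83 each). The points of a library share its list. Being the highest of so many correlations over 16 libraries, these values are high by selection, no value expected from chance was computed, and they are a description alone.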

How the data were processed

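ATAC-seq was performed by the authors on sorted mouse HSPCs, and 1 deposited peak list for each of 16 libraries was used. Per the study's methods, paired reads were trimmed with cutadapt (1.9.1) and aligned to mm10 with Bowtie2 (2.2.6). After removal of duplicates and a shift for the transposase, peaks were called per library with MACS2 (2.1.0), and these lists are not pooled over replicates. In the deposited lists the authors gave a fold enrichment for each summit, which is a ratio over its local background, and 2 more columns with −log10 p and −log10 q of the peak. These values were used to rank and filter peaks within a list, since they depend on the depth of the library, which is unknown here.

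Several summits of 1 interval were counted as 1 peak with the highest −log10 p. Peaks overlapping by 1 bp or more were merged. Genes and start sites came from GENCODE, a promoter was within 3 kb of a start site, and member promoters overlapped 500 bp either side of a start. Effects were tested by exact permutation over 1296 arrangements, and contrasts over 70 regroupings, at a threshold of 0.05. Regions with a peak in at least 4 of 16 libraries were tested. The rank procedure and the search for core letters were tested on simulated data.

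Named regions were member promoters, the strongest region 22 to 25 kb downstream of the Runx1 P1 start codon, and the best-ranked regions outside promoters at each locus. Called regions were named too (beyond 10 for an effect over the 4 loci together, those with the largest differences each way). Outside this rule, 4 called regions present in all 16 libraries were named after their values were seen. They were Runx1 +3.4 and −41.9 kb, Runx2 +30.9 kb and Cbfb +93.7 kb. The 3 genes most like each member were named by Spearman's correlation of promoter ranks. The members and lists were chosen with earlier results of these data known. Alternatives were ordering by fold enrichment, percentiles, the strongest 50000 peaks, a −log10 q of at least 2, 50% overlap, other filters, a 10 kb flank, labels permuted across deposit sets, each set alone, looser presence (3 of 4 against 1 of 4), replicate blocks and leaving out each library or, added later, the 3 of lowest q share. Samples were grouped by genotype as labelled. Since a library pools 2 mice, p-values measure the spread between such pools. No pairing by replicate number was seen: deviations of same numbers correlated at 0.09 to 0.38 over 24 pairs, against 0.10 to 0.39 for other numbers of the same set. These ranges alone cannot exclude a pairing. Python 3.11.15, numpy 2.4.6, pandas 2.3.3, scipy 1.17.1 and matplotlib 3.10.9 were used. Reads, merged peak files and other assays were not analysed here. Values of some genes of the marker and target lists are not reported here.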

Additional observations from a re-analysis of the deposited data

Results flagged for a closer look

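Within groups of 4 libraries, 15 of 204 groups tested held a library whose gap to the others passed Dixon's 95% critical value. In 8 of the 15 the other 3 libraries were tied, so that any gap passes, and the rate of about 5% that chance gives does not apply to such groups. The number of open regions at Cbfb was 13 in P300KO replicate 2 against 18 to 19 in the other P300KO libraries, and 17 in P300KO_TET2KO replicate 2 against 18 in the others.

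WT libraries of deposit set 1 stood apart at several Runx1 and Cbfb regions. WT replicate 2 ranked 16063 at Runx1 +128.9 kb (others 33132 to 37653) and 17300 at Runx1 +38.5 kb (others 22584 to 23323). WT replicate 1 ranked 67138 at Cbfb −13.2 kb (others 36243 to 39706). At the called Runx1 region +109.9 kb, P300KO_TET2KO replicate 3 ranked 10125 (others 11067 to 11186). At Runx2 +140.1 kb, TET2KO replicate 1 ranked 43990 (others 84135 to 94977). P300KO replicate 2 had no peak at Runx2 +85.6 kb, rank 137336, where the others ranked 59892 to 66385.

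In the remaining groups a single library had a weak peak and the other 3 had none. This was so for P300KO replicate 4 at Runx3 +100.6 kb (rank 119289), TET2KO replicate 1 at Runx1 +98.6 kb (79247), and TET2KO replicate 3 and P300KO_TET2KO replicate 2 at Runx2 +89.1 kb (105306 and 89293). At Runx2 +80.0 kb it was so for WT replicate 4, TET2KO replicate 3 and P300KO_TET2KO replicate 3 (102347, 107850 and 94816). Of 102 pairs of effects compared between backgrounds, 0 had every library of one background moving one way and every library of the other the opposite way.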

How the results depend on the processing

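Calls across the 4 loci, 25 for each effect, ranged from 22 to 28 for p300 (beside 10.5% to 13.9% of all regions) and from 19 to 29 for Tet2 (beside 9.01% to 12.5%) when single libraries were left out. They fell to 15 and 13 with the strongest 50000 peaks (23.1% and 20% of the members tested, beside 16.2% and 12.5%) and to 12 and 10 in regions open in all 16 libraries (beside 17.6% and 14.0%), where fewer regions are tested, and p300 calls fell to 16 with a 10 kb flank (beside 12.8%). With labels permuted across deposit sets, p300 calls fell to 17 (beside 8.93%) and Tet2 calls to 16 (beside 7.55%). That setting does not hold the deposit sets apart in the permutation, and the cause of the fall was not tested. The split of Tet2 calls was 17 nearer and 10 further down by fold enrichment (27 calls, beside 12.5%) and 12 and 7 by percentile (19, beside 9.72%). With the replicate block, p300 gave 21 calls (10.2% of all regions) and Tet2 20 (8.22%), and it ended 10 of 41 calls at named regions (p 0.0547 to 0.0938): for p300 at Runx2 +140.1 and +30.9 kb and Runx3 −22.5, +39.3 and +100.6 kb, and for Tet2 at Runx1 +98.6 kb, Runx2 +128.5 and +141.3 kb and Runx3 +85.3 and +100.6 kb.

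Gained or lost member regions, 0 as defined, became 8 gained and 1 lost (P300KO_TET2KO against TET2KO, beside 1.19% and 0.522% of all regions), 4 and 3 (P300KO against WT, beside 0.747% and 0.589%), 8 and 4 (P300KO_TET2KO against P300KO, beside 1.11% and 0.58%) and 3 lost (TET2KO against WT, beside 0.558%) at 3 of 4 against 1 of 4. A −log10 q of at least 2 gave 1 gained for P300KO_TET2KO against P300KO (beside 0.053%), and 50% overlap 1 gained for P300KO_TET2KO against TET2KO (beside 0.128%). Without single libraries the counts were 0 to 2 gained and 0 to 1 lost for P300KO against WT, 0 to 1 gained for P300KO_TET2KO against TET2KO, and 0 to 3 gained and 0 to 1 lost for P300KO_TET2KO against P300KO.

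Region counts per locus changed call or sign as follows, and the cause was not tested. The Cbfb p300 difference of 2.12 had p 0.0531 across deposit sets and was 2.5 in set 1 and 1.75 in set 2, neither of which can pass (exact permutation throughout), and was 1.5 to 2.75 without single libraries. The Cbfb Tet2 difference of −0.125 became 1.62 at a −log10 q of at least 2, 0.375 with the strongest 50000 peaks, 0.625 at 50% overlap and 0.5 in set 1, with −0.75 to 0.5 without single libraries, where −0.75 (without P300KO replicate 2) passed at p 0.0278. The Runx1 p300 difference was −0.375 with the strongest 50000 peaks, 3.5 to 6 without single libraries, and 7.17 without the WT and P300KO libraries of set 1 (p 0.0278, chosen after seeing the data). Runx2 gave −0.125 (p300) and −1.62 (Tet2) with the strongest 50000 peaks, its Tet2 difference passed at 6.75 with a −log10 q of at least 2 (p 0.0247), and without single libraries the differences were 0.125 to 4.12 (p300) and 0.875 to 4.88 (Tet2). The Runx1 Tet2 difference was 0.125 with the strongest 50000 peaks and 2 to 4.5 without single libraries. Runx3 gave 0.25 for p300 in set 1 and −1.88 to −0.375 without single libraries, and for Tet2 −1 in set 2, 2.88 at 50% overlap (p 0.0278), −0.833 without the 3 libraries of lowest q share and −0.125 to 1.38 without single libraries.

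Signs turned at named regions whose differences were not called, except Runx1 +3.4 kb, which was. By fold enrichment the p300 differences were −0.25 at Runx3 P1, 0.35 at the Cbfb promoter, 0.30 at Runx1 P2, 0.31 at the Runx1 element, 0.26 at Runx2 P2 and 0.10 at Runx1 +3.4 kb, and the Tet2 differences 0.07 at Runx3 +32.7 kb, 0.01 at Runx1 +128.9 kb and 0.18 at Runx1 P1. By percentile, where a positive value means nearer the top, Runx3 P1 gave 0.0233 (Tet2) and Runx2 P1 0.445 (p300). Within set 1 the values were −0.03 (p300) and −0.28 (Tet2) at Runx3 P1, −0.12 at Runx3 +31.3 kb, 0.10 at Runx1 +128.9 kb and −0.10 at Runx1 P2 (Tet2), 0.05 at Runx1 P2 and −0.11 at Runx2 P1 (p300). Within set 2 they were 0.13 at the Cbfb promoter and 0.06 at the Runx1 element (p300). Without the 3 libraries they were 0.00 at the Cbfb promoter and 0.04 at the Runx1 element (p300) and 0.11 at Runx2 P1 (Tet2). Without single libraries the p300 differences spanned −0.20 to 0.00 at the Cbfb promoter, −0.12 to 0.18 at Runx1 +128.9 kb, −0.16 to 0.08 at the Runx1 element, −0.08 to 0.02 at Runx2 P2 and −0.23 to 0.24 at Runx2 P1. The Tet2 differences spanned −0.03 to 0.08 at Runx1 P2, −0.25 to 0.05 at Runx1 +128.9 kb, 0.00 to 0.23 at the Runx1 element and −0.35 to 0.11 at Runx2 P1.

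Depth is unknown, so weak regions cannot be told from absent ones. Ranks describe a place within a list and not an amount of accessibility. With 4 libraries a genotype and 0 regions past adjustment over all regions, single calls remain candidates.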
